A study of Mus musculus with 6 samples.

Results

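The collagen genes outside type IV were examined in RNA-Seq of E14.5 mouse lenses. Members were the genes of the deposited count table named Col, a type number, the letter a and a chain number, without the Col4a genes. The table held 29 such genes among 13024 genes, and all 29 passed the filter on low counts (at least 10 counts in at least 3 libraries), as did 12879 genes in all. A further 9 annotated genes of the family (Col5a3, Col6a4, Col6a5, Col6a6, Col10a1, Col19a1, Col20a1, Col22a1 and Col28a1) were not analysed here.

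The study compared lenses lacking Gata3, which encodes a zinc-finger transcription factor, with control lenses. Each of the 6 libraries was made from polyA RNA of a pool of lenses (10 lenses, taken from 5 embryos) on a mixed background of C57BL/6 and FVB, with 3 pools in each group. CKO embryos were Gata3 f/f, Pax6-Cre/+, entered in the sample labels as Gata3 -/-, and Cre came from a transgene with a Pax6 enhancer and the P0 promoter, active in the head ectoderm that forms lens and cornea. The study also reports Cre expression in scattered cells of the retinal neuroectoderm. Mesenchyme and vessels are not among the tissues named for this Cre line. Control embryos carried no Cre: their genotype is wild type in the labels, Gata3 f/wt in the study's results and Gata3 f/f in its methods, so the Cre transgene and the loss of Gata3 cannot be told apart in this comparison. CKO pools are numbered here by their titles (1, 2 and 3), and the same libraries are called CKO2, CKO3 and CKO4 in their descriptions.

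Collagens are extracellular proteins built from trimers of alpha chains wound into a helix, and types differ in how the trimers assemble. Fibril-forming types give tissues such as the corneal stroma and sclera their strength, fibril-associated types decorate those fibrils, type VI forms beaded filaments, and types XV and XVIII lie in basement membrane zones. The lens is surrounded by a capsule, a thick basement membrane whose collagen is mainly type IV. Around it at this age lie the periocular mesenchyme, which comes largely from neural crest and makes stromal collagens, the hyaloid vessels, the pigmented rim of the optic cup and the vitreous, whose fibrils contain types II, IX, XI and V.

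Between 15157230 and 18811104 counts per library fell on genes, and the collagens outside type IV took from 0.117% to 0.675% of them. Levels are in CPM, that is, counts relative to a library size scaled by edgeR's TMM method. As a check of the labels, Gata3 had 202, 386 and 156 counts in control replicates 1, 2 and 3 and 910, 1064 and 894 counts in CKO replicates 1, 2 and 3. The counts are sums over whole genes and do not separate the floxed exon 4 from the other exons, so the CKO libraries are called here by their label, and every direction below is that of the libraries labelled CKO. All 10 genes of a lens epithelium list and 18 of 19 genes of a lens fibre list were detected in the table, and the 18 fibre genes all had a log2 fold change below 0 in the libraries labelled CKO (10 at an unadjusted p under 0.05 and 0 after adjustment in edgeR). In DESeq2 the fibre genes Bfsp1, Bfsp2, Birc7 and Caprin2 had an adjusted p under 0.05 (named after their values were seen). Control replicate 1 and CKO replicate 2 stood apart most clearly in 2 marker lists for tissue outside the lens. A mesenchyme list without collagens (23 of 29 genes tested) had a mean log2 CPM of 4.20, 3.09 and 2.32 in control replicates 1, 2 and 3 and of 2.52, 4.92 and 3.13 in CKO replicates 1, 2 and 3, and its summed level was 427 to 1000.2 CPM in control and 521 to 1419 CPM in CKO pools. A pigment cell list (9 genes tested) had 5.25, 3.58 and 3.14 in the control and 3.41, 5.20 and 3.20 in the CKO replicates. A surface ectoderm list (13 genes tested) was also highest in CKO replicate 2 and control replicate 1, with control replicate 2 close behind. It had 3.00, 2.89 and 1.95 in the control and 2.26, 3.48 and 2.53 in the CKO replicates. In pools such as these, fewer cells of a type and less RNA per cell cannot be told apart.

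Most collagen genes outside type IV had their highest levels in the same libraries as the mesenchyme and pigment markers, and a smaller set held a steady level. In 21 of the 29 members the highest 2 libraries were control replicate 1 and CKO replicate 2, the same as for the mesenchyme list, against 7.1% of all genes tested. The highest library was at least 4 times the lowest in 19 members, against 3.74% of all genes tested. Each member was then set beside each of 8 marker lists (mesenchyme, vessel, macrophage, retina, pigment, surface ectoderm, lens epithelium and lens fibre) and beside a flat profile. The measure of likeness was the SD, over the 6 libraries, of the log2 ratio of the member to the mean of the list. The smallest SD was to the mesenchyme list in 15 members, to the pigment list in 5 and to the flat profile in 6. Of the 12729 tested genes that are neither members nor list genes, 0.676% were closest to mesenchyme, 0.306% to pigment and 74.3% to the flat profile. The remaining members were Col15a1, closest to the vessel list, Col13a1, closest to the lens epithelium list, and Col9a3, closest to the surface ectoderm list. No member was closest to the retina, macrophage or lens fibre lists. These classes were read from the same libraries whose levels are described, so they are given without a test. Mesenchyme and pigment lists were high in the same libraries, and the split of members between them was not firm. With the median of each list in place of its mean, 11 members were closest to mesenchyme and 9 to pigment. Col1a1, Col1a2, Col6a2, Col12a1, Col14a1 and Col27a1 were then closest to pigment. The number of members that were closest to either list together was 20, or 19 without CKO replicate 2. Without control replicate 1 and CKO replicate 2 together it was 11, among them Col9a1, which left the flat class for the pigment list, and 10 members were then closest to the flat profile.

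**Figure D1:**
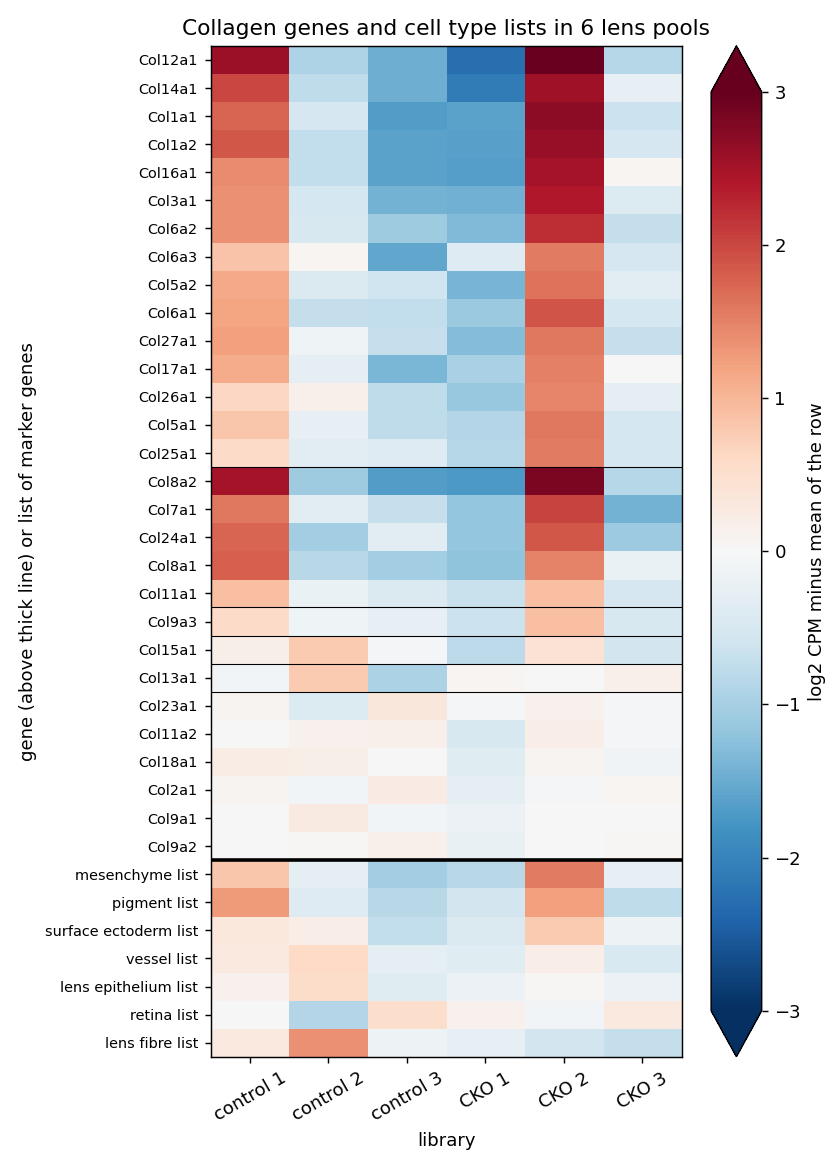
The colour gives log2 CPM of each collagen gene (above the thick line) and of each marker list (below it) in each of the 6 libraries, minus the mean of that gene or list over the libraries. Thin lines separate the genes by their closest profile, in the order mesenchyme (15 genes), pigment (5), surface ectoderm, vessel and lens epithelium (1 each) and flat (6). Control 1 and CKO 2 have the highest values in each of the upper 20 genes, and the lowest 6 genes are pale throughout.

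Summed over the 15 members closest to mesenchyme, the level was 3152, 855 and 492 CPM in control replicates 1, 2 and 3 and 491, 5449 and 819 CPM in CKO replicates 1, 2 and 3. The highest library was thus 11.1 times the lowest, and the largest and the next largest sums came from different groups. Over the 6 steady members the sums were 743, 741 and 733 CPM in the control and 585, 706 and 683 CPM in the CKO replicates, a span of 1.27-fold. The mesenchyme list itself spanned 3.32-fold in summed CPM, and its 3 most abundant genes, Ogn, Zfhx4 and Fbn1, spanned 2.62-fold, 1.31-fold and 2.47-fold. Lum and Dcn, small proteoglycans that bind collagen fibrils, spanned 34.7-fold and 14.8-fold, and the transcription factor gene Twist1 spanned 11.2-fold (these 3 genes were chosen after their values were seen). Not every list gene was highest in control replicate 1 or CKO replicate 2. Ogn was highest in control replicate 2, Foxd1 in CKO replicate 3 and Pi15 in CKO replicate 1.

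Among the fibril-forming chains, those of types I and III had the highest mean levels in CPM per kb and the widest spans between libraries. Col1a1, one of the chains of type I collagen (chromosome 11, 94936224 to 94953042, mm10), had 599, 126 and 55.1 CPM in control replicates 1, 2 and 3 and 58.0, 1130.5 and 114 CPM in CKO replicates 1, 2 and 3. For Col1a2, which encodes the other type I chain, the control values were 731, 121 and 65.8 CPM and the CKO values 65.4, 1229.6 and 142 CPM. Col3a1, the single chain of type III collagen of soft connective tissue, had 503, 135 and 73.2 CPM in the control and 70.9, 1026.8 and 147 CPM in the CKO libraries. In all 3 genes CKO replicate 2 was highest, control replicate 1 came next and control replicate 3 and CKO replicate 1 were lowest, so the groups overlapped over the whole range. The span from lowest to highest was 20.5-fold for Col1a1, 18.8-fold for Col1a2 and 14.49-fold for Col3a1.

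Type V collagen, which joins type I in mixed fibrils and sets their width, moved less. Col5a1 had 306, 144 and 101 CPM in the control and 93.9, 511 and 119 CPM in the CKO replicates. It kept the steadiest ratio to the mesenchyme list of all members, with an SD of the log2 ratio of 0.18 over the 6 libraries. Without control replicate 1, however, the closest list of Col5a1 was pigment. Col5a2 had 206, 68.6 and 61.2 CPM in the control and 35.7, 289.7 and 73.1 CPM in the CKO replicates, and its ratio to the list varied with an SD of 0.35. Col27a1, a fibril-forming chain known from cartilage, had 26.7, 10.4 and 7.04 CPM in the control and 4.60, 33.8 and 7.08 CPM in the CKO replicates. In each of these genes the same libraries, control replicate 1 and CKO replicate 2, were above the rest.

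The chains of types II and XI, which share fibrils in cartilage and vitreous, were not alike in this respect. Col2a1, the type II chain, had 166, 147 and 185 CPM in the control and 129, 153 and 161 CPM in the CKO replicates, a span of 1.44-fold. Col11a2 was low and steady, with 10.8, 11.7 and 11.9 CPM in the control and 7.59, 12.2 and 10.5 CPM in the CKO replicates. Col11a1 had 69.8, 32.6 and 27.4 CPM in the control and 23.5, 69.7 and 26.4 CPM in the CKO replicates, and its closest list was pigment. Levels of Col2a1 and Col11a2 in control replicate 1 and CKO replicate 2 thus lay within or next to the range of the other pools, whereas Col11a1 was above 69.6 CPM in both and at most 32.6 CPM elsewhere. Col24a1, a minor fibril-forming chain with a mean of 7.09 CPM, was also closest to the pigment list and spanned 8.11-fold.

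The fibril-associated chains held both the widest and the narrowest spans of the family. Col12a1, which binds type I fibrils in dense connective tissue and cornea, had 185, 16.4 and 11.3 CPM in the control and 6.48, 243 and 17.2 CPM in the CKO replicates, a span of 37.4-fold. Col14a1, another partner of type I fibrils, had 81.4, 12.1 and 7.37 CPM in the control and 4.73, 119 and 17.2 CPM in the CKO replicates. Col16a1 had 28.6, 6.48 and 3.52 CPM in the control and 3.44, 61.0 and 11.2 CPM in the CKO replicates. All 3 were closest to the mesenchyme list but swung more widely than it did: the SD of the log2 ratio to the list was 1.26 for Col12a1, 0.93 for Col14a1 and 0.70 for Col16a1.

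Type IX collagen, which coats type II fibrils, was steady in its first and second chains. Col9a1 had 202, 243 and 191 CPM in the control and 181, 199.8 and 203 CPM in the CKO replicates, with control replicate 2 highest and a span of 1.35-fold. Col9a2 had 57.8, 59.9 and 65.6 CPM in the control and 50.6, 59.0 and 60.2 CPM in the CKO replicates, a span of 1.30-fold and the narrowest of all members. Neither gene separated control replicate 1 and CKO replicate 2 from the rest. Col9a3, the remaining chain, had a mean of 7.22 CPM and its highest values in those 2 libraries, and 234 of its exon bases overlap Tcfl5 on the other strand. The strand and overlap options of the counting are not stated, so the Col9a3 value is uncertain.

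**Figure D2:**
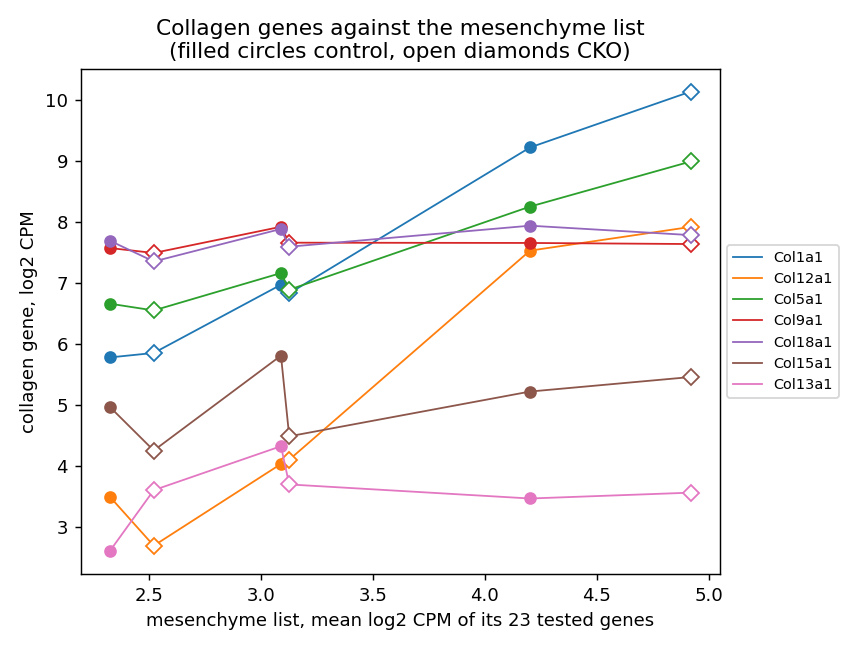
Log2 CPM of 7 collagen genes (vertical axis) is plotted against the mean log2 CPM of the 23 tested mesenchyme list genes (horizontal axis) in each library, with filled circles for control and open diamonds for CKO libraries and lines joining the points of a gene. Col1a1, Col12a1 and Col5a1 are highest in the 2 libraries on the right (control 1 at 4.20 and CKO 2 at 4.92 on the horizontal axis), whereas the points of Col9a1 and Col18a1 lie near a level line.

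Type VI collagen, the beaded filament of connective tissue, was closest to the mesenchyme list in all 3 of its measured chains. Col6a1 had 108, 28.9 and 28.4 CPM in the control and 21.6, 175 and 32.7 CPM in the CKO replicates. Col6a2 had 92.9, 25.6 and 17.1 CPM in the control and 14.3, 166 and 21.9 CPM in the CKO replicates. Col6a3 had 230.3, 131 and 42.8 CPM in the control and 96.4, 374 and 89.2 CPM in the CKO replicates. Control replicate 1 and CKO replicate 2 were highest for each chain, but Col6a3 also had an intermediate level in control replicate 2 that Col6a1 and Col6a2 lacked. Col6a2 and Col6a1 lie 85.2 kb apart on chromosome 10, and Col18a1, which held a steady level, lies 326 kb beyond Col6a1. Col3a1 and Col5a2 lie 24.6 kb apart on chromosome 1, and both followed the mesenchyme list.

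The network-forming chains of type VIII, known from the membrane beneath the corneal endothelium and from vessel walls, were low in 4 of the 6 libraries. Col8a1 had 40.7, 6.62 and 5.75 CPM in the control and 5.06, 33.1 and 10.3 CPM in the CKO replicates. Col8a2 had 55.0, 4.72 and 3.07 CPM in the control and 2.98, 69.5 and 5.41 CPM in the CKO replicates. Both were closest to the pigment list, but the mesenchyme list was almost as close (SD of 0.51 to pigment and 0.52 to mesenchyme for Col8a1, and 1.13 to each for Col8a2). Col7a1, the anchoring fibril that fixes epithelium to stroma, had 31.0, 8.24 and 6.42 CPM in the control and 4.60, 41.9 and 3.85 CPM in the CKO replicates and was also closest to the pigment list.

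The multiplexins, collagens of the basement membrane zone, did not share this pattern. Col18a1 encodes the chain whose C-terminal fragment is endostatin (chromosome 10, 77052178 to 77166548, mm10). It had 246, 237 and 208 CPM in the control and 164, 221 and 194 CPM in the CKO replicates, with CKO replicate 1 lowest. Col15a1, found around vessels and muscle, had 37.4, 56.2 and 31.4 CPM in the control and 19.1, 44.1 and 22.5 CPM in the CKO replicates. Its ratio to the vessel list was the steadiest, with an SD of 0.25, and that list had a mean log2 CPM of 4.36, 4.64 and 3.79 in the control and 3.68, 4.26 and 3.59 in the CKO replicates. Both Col15a1 and the vessel list were highest in control replicate 2.

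Of the transmembrane collagens, Col17a1 followed mesenchyme and Col23a1 was steady. Col17a1, a hemidesmosome component of surface epithelium, had 20.2, 7.68 and 3.63 CPM in the control and 4.73, 26.6 and 9.37 CPM in the CKO replicates. Its SD to the mesenchyme list was 0.22 and its SD to the surface ectoderm list 0.64. Col23a1 had 59.2, 42.4 and 71.6 CPM in the control and 54.2, 61.2 and 53.8 CPM in the CKO replicates, lowest in control replicate 2 and highest in control replicate 3. The retina list was likewise lowest in control replicate 2 (1901 summed CPM) and highest in control replicate 3 (4395), and the SD of Col23a1 was 0.25 to a flat profile and 0.30 to the retina list. The part of retinal RNA in the Col23a1 level was not tested. Col13a1, found at cell adhesions, had 11.1, 20.1 and 6.09 CPM in the control and 12.2, 11.9 and 13 CPM in the CKO replicates. It was highest in control replicate 2, as was the lens epithelium list, its closest list with an SD of 0.34. Col25a1, with a mean of 8.75 CPM, followed the mesenchyme list. Col26a1, which is not a transmembrane collagen, also followed it, with 23.3, 16.8 and 8.94 CPM in the control and 6.87, 41.9 and 12.3 CPM in the CKO replicates.

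Ranked by CPM per kb, the leading member differed between libraries. The values that follow use the longest coding transcript. In control replicate 1 and CKO replicate 2 it was Col1a2 (137 and 230 CPM per kb), followed by Col1a1 (101 and 191) and Col3a1 (90.5 and 185). In the other 4 libraries it was Col9a1, at 63.4 and 49.8 CPM per kb in control replicates 2 and 3 and 47.1 and 52.9 CPM per kb in CKO replicates 1 and 3. Col18a1 and then Col2a1 came next in each of these 4 libraries, at 29.3 to 42.4 and 25.2 to 36.2 CPM per kb. By mean rank over the 6 libraries, Col9a1 (2.17) and Col18a1 (3.50) stood above Col1a2 (4.00) and Col3a1 (4.17). The order depends in part on the length used. Per kb of all exons, a choice added after seeing the data, Col1a1 led in control replicate 1 and CKO replicate 2 (91.2 and 172 CPM per kb), above Col1a2 (58.8 and 99.0). In the other 4 libraries Col9a1 and Col18a1 again came first, but Col9a2 (16.3 to 21.2) took the place after them and not Col2a1.

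**Figure D3:**
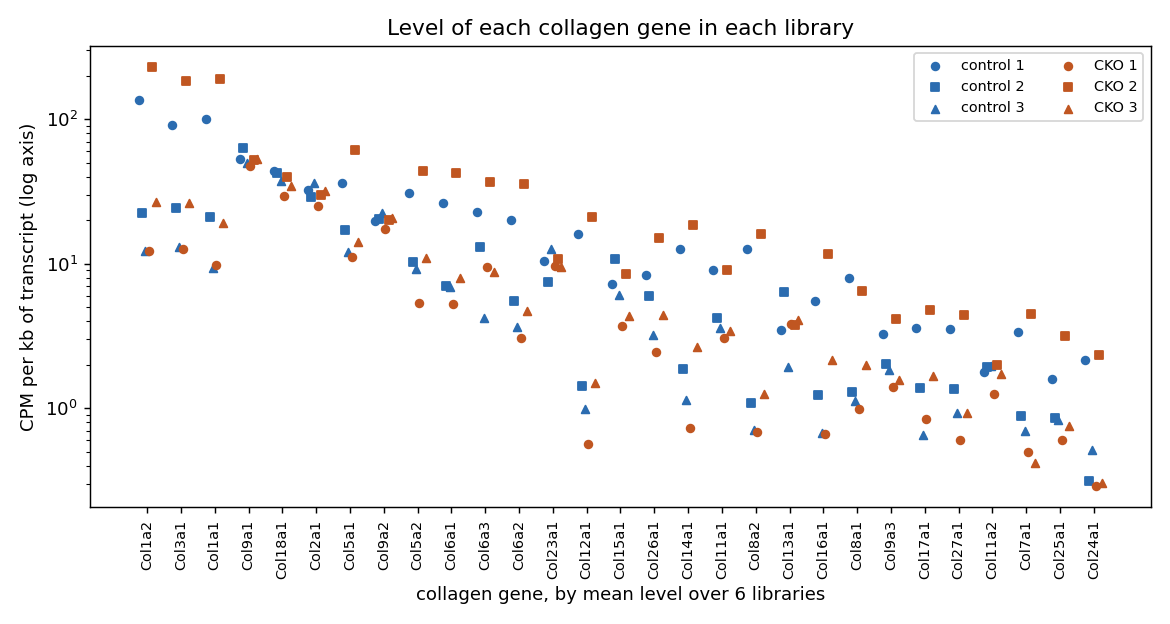
CPM per kb of the longest coding transcript (log axis) is plotted for each of the 29 collagen genes in each library, with blue symbols for control, orange symbols for CKO and a symbol shape for each replicate. Blue circles (control 1) and orange squares (CKO 2) lie above the other points for most genes, and the 6 points of Col9a1, Col18a1, Col2a1 and Col9a2 lie close together.

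The sequence around the transcription start was available from RefSeq for 22 of the 29 members, in 25 windows that run from 250 bases before to 50 bases after a start. Windows of 2 members that followed the mesenchyme list (Col1a2 and Col3a1) and of 2 steady members (Col9a1, which has 2 starts, and Col9a2) are printed 5′ to 3′ on the strand of the gene, as the members that moved together and those that did not. All are on the plus strand of GRCm38.p6, at chr6:4505368-4505667 for Col1a2, chr1:45311288-45311587 for Col3a1, chr1:24177360-24177659 and chr1:24194953-24195252 for Col9a1 and chr4:121039316-121039615 for Col9a2. Capitals mark matches on either strand to a GATA motif, to TATAAA or to CCAAT. The GATA motif was searched as AGATAA, which ends in A after GATA, as AGATAG, which ends in G, and as the forms with T in place of the first A, which are TGATAA for the former and TGATAG for the latter. No 2 of the marked matches overlap.
Col1a2: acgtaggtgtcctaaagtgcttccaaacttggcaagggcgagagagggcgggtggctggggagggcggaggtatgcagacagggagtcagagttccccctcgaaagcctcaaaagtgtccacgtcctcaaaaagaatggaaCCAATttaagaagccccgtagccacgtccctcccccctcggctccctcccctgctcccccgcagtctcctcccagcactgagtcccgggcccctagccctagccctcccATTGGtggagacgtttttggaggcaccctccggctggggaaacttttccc
Col3a1: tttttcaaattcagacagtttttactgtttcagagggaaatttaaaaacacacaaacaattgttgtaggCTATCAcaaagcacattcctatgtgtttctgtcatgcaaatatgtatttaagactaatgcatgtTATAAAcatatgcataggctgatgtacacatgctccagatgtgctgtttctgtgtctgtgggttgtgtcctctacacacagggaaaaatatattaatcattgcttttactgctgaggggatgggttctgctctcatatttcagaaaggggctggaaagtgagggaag
Col9a1, upstream start: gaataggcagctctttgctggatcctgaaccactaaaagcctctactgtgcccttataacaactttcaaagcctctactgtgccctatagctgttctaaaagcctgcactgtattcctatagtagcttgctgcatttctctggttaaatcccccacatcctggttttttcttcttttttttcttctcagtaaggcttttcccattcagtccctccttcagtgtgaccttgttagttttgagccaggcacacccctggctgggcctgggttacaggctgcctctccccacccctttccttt
Col9a1, downstream start: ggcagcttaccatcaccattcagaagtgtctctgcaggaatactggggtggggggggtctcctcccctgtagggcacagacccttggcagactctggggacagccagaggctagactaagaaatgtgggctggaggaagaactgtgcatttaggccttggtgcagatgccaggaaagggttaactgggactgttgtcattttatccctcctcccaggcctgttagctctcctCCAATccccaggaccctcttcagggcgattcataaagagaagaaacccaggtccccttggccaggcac
Col9a2: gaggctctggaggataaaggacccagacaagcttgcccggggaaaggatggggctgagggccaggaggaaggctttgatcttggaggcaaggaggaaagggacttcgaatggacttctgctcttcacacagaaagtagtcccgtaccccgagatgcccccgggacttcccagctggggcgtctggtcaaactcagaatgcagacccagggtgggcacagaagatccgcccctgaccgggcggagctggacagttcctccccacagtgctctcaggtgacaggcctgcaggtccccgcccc
In the Col3a1 window the capitals are a GATA match on the minus strand, 181 bases before the start, and a TATAAA match, and the Col1a2 window holds CCAAT on each strand. The Col9a1 window of the downstream start holds 1 CCAAT match, and the upstream Col9a1 window and the Col9a2 window hold none of the letters searched. A GATA match was present in 4 of the 25 windows (16%), those of Col3a1, Col11a2, Col17a1 and Col27a1, and in 29.8% of all 32851 RefSeq windows of this length. TATAAA was present in 16% of member windows and 13.6% of all windows, and CCAAT in 32% and 37.4%. Of the windows with a GATA match, 3 belong to members closest to the mesenchyme list (of 11 such windows) and 1 to a steady member (of 7). A match describes these letters only, and no binding was measured here.

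Several pairs of chains that assemble into 1 protein kept a narrow ratio to each other across the libraries. The ratio of Col1a1 to Col1a2 in CPM per kb of the longest coding transcript was between 0.724 and 0.940 in the 6 libraries. With the length of all exons of a gene in place of the coding transcript the ratio was 1.52 to 1.97, so its side of 1 depends on the length used, and its constancy between libraries does not. Col5a1 to Col5a2 was 1.17 to 2.07 and Col6a1 to Col6a2 was 1.20 to 1.88. Col6a3 to Col6a1 ranged more widely, from 0.613 in control replicate 3 to 1.84 in control replicate 2, with 1.81 in CKO replicate 1. The ratio of Col8a1 to Col8a2, both closest to the pigment list, moved with the libraries. It was 0.627 in control replicate 1 and 0.403 in CKO replicate 2 and 1.19 to 1.61 in the others. Among the steady chains Col9a1 to Col9a2 was 2.22 to 3.10. Where the chains belonged to different classes, the ratio also moved with the libraries. The classes were sorted over these same libraries, so this movement was in part built in. Col11a1 to Col11a2 was 5.11 in control replicate 1 and 4.52 in CKO replicate 2 and 1.82 to 2.44 in the others. Col9a1 to Col9a3 was 16.2 and 12.6 in those 2 libraries and 26.9 to 33.7 in the others.

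**Figure D4:**
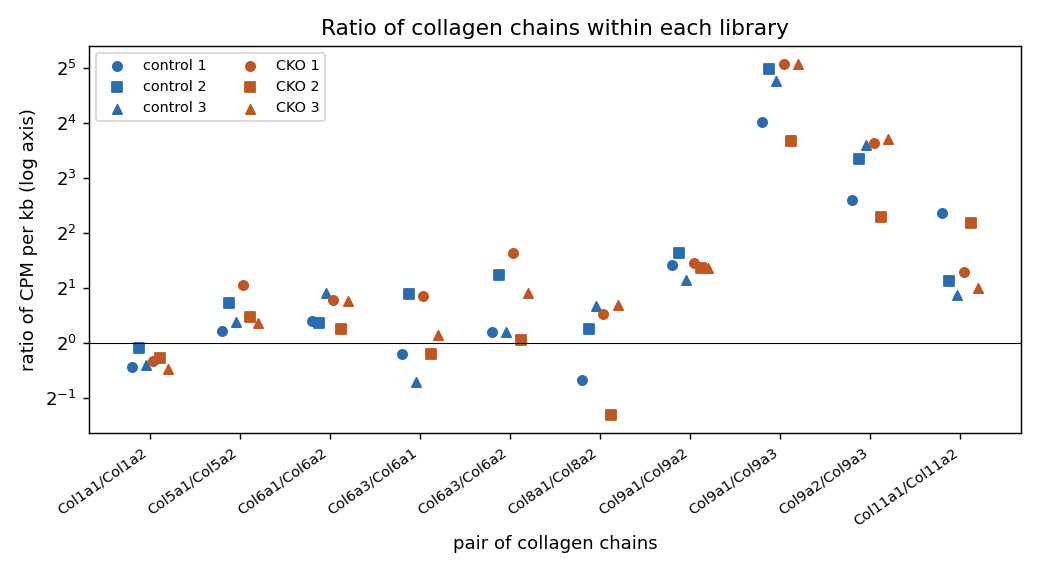
The ratio of CPM per kb of the longest coding transcript between chains of 1 collagen type (log axis) is plotted for 10 pairs in each library, with blue symbols for control and orange symbols for CKO. Points of Col1a1/Col1a2 and Col9a1/Col9a2 lie close together (0.724 to 0.940 and 2.22 to 3.10), whereas those of Col8a1/Col8a2, Col9a1/Col9a3 and Col11a1/Col11a2 spread, with control 1 and CKO 2 apart from the rest.

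No collagen gene outside type IV differed between CKO and control lenses by edgeR's quasi-likelihood test at an adjusted p (Benjamini-Hochberg over all 12879 genes) under 0.05. This was 0 of 29 members against 0% of all genes, and 0 of 29 members also had an unadjusted p under 0.05, against 3.55% of all genes (1.3% higher and 2.24% lower in CKO). DESeq2 called 0 of 29 members and 0.661% of all genes at an adjusted p under 0.05, with no adjusted p for Col7a1, Col8a2 and Col12a1. The CKO and control values overlapped in every member, so 0 of 29 members had groups that did not overlap, against 8.36% of all genes (3.67% higher and 4.69% lower in CKO). The log2 fold change of CKO against control was above 0 in 17 members and below 0 in 12, with a median of 0.25 against 0.0019 over all genes tested. Its standard error had a median of 0.79 over the members and 0.13 over all genes, and the 95% intervals of most members were accordingly wide.

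The width of these intervals differed between the classes. The classes were sorted by spread over these same libraries, so this difference was in part built in. The 15 members closest to mesenchyme had log2 fold changes from 0.05 to 0.98 with standard errors from 0.67 to 1.51. For Col1a1 the log2 fold change was 0.74 ± 1.28 (SE, n = 3 pools per group), with a 95% interval from -2.33 to 3.81, for means of 259.9 ± 296 CPM (SD) in control and 434 ± 604 CPM in CKO pools. Col16a1 had the highest value of all members, 0.98 ± 1.14, with an interval from -1.76 to 3.71. All 15 values were above 0, and all 15 genes had their highest level in CKO replicate 2. The mesenchyme list leaned the same way, with 18 of its 23 tested genes above 0 (median 0.40), 2 of them at an unadjusted p under 0.05, and the part of mesenchymal RNA in the collagen values was not tested.

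The 6 steady members all had log2 fold changes slightly below 0, from -0.25 to -0.04, with standard errors from 0.10 to 0.20. CKO replicate 1 was the lowest library for Col2a1, Col9a1, Col9a2, Col11a2 and Col18a1. Without that library the log2 fold change was -0.15 for Col18a1, -0.079 for Col2a1, -0.019 for Col11a2 and -0.0079 for Col23a1. Col9a1 had 212 ± 27.4 CPM in control and 194 ± 12.2 CPM in CKO pools, a log2 fold change of -0.13 ± 0.11 with a 95% interval from -0.38 to 0.13. Col9a2 had 61.1 ± 4.03 and 56.6 ± 5.23 CPM, a log2 fold change of -0.11 ± 0.10 with an interval from -0.34 to 0.12. For Col2a1 the value was -0.17 ± 0.12 with an interval from -0.45 to 0.11. Col18a1 had the lowest unadjusted p of the family (0.083, adjusted p = 0.9998 by edgeR), with 230.4 ± 20.1 CPM in control and 193 ± 28.6 CPM in CKO pools and a log2 fold change of -0.25 ± 0.13. An exact two-sided permutation test over the pools gave p = 0.2 for Col18a1, and 3 against 3 pools cannot give less than 0.1. Col15a1 had the lowest log2 fold change of the family, -0.54 ± 0.36, with 41.7 ± 12.9 CPM in control and 28.6 ± 13.6 CPM in CKO pools. Of the vessel list, which Col15a1 followed most closely, 16 of 17 tested genes had a log2 fold change below 0 (median -0.52), its summed level was 389.6 to 585 CPM in control and 343 to 472 CPM in CKO pools, and the part of vessel RNA in the Col15a1 value was not tested.

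**Figure D5:**
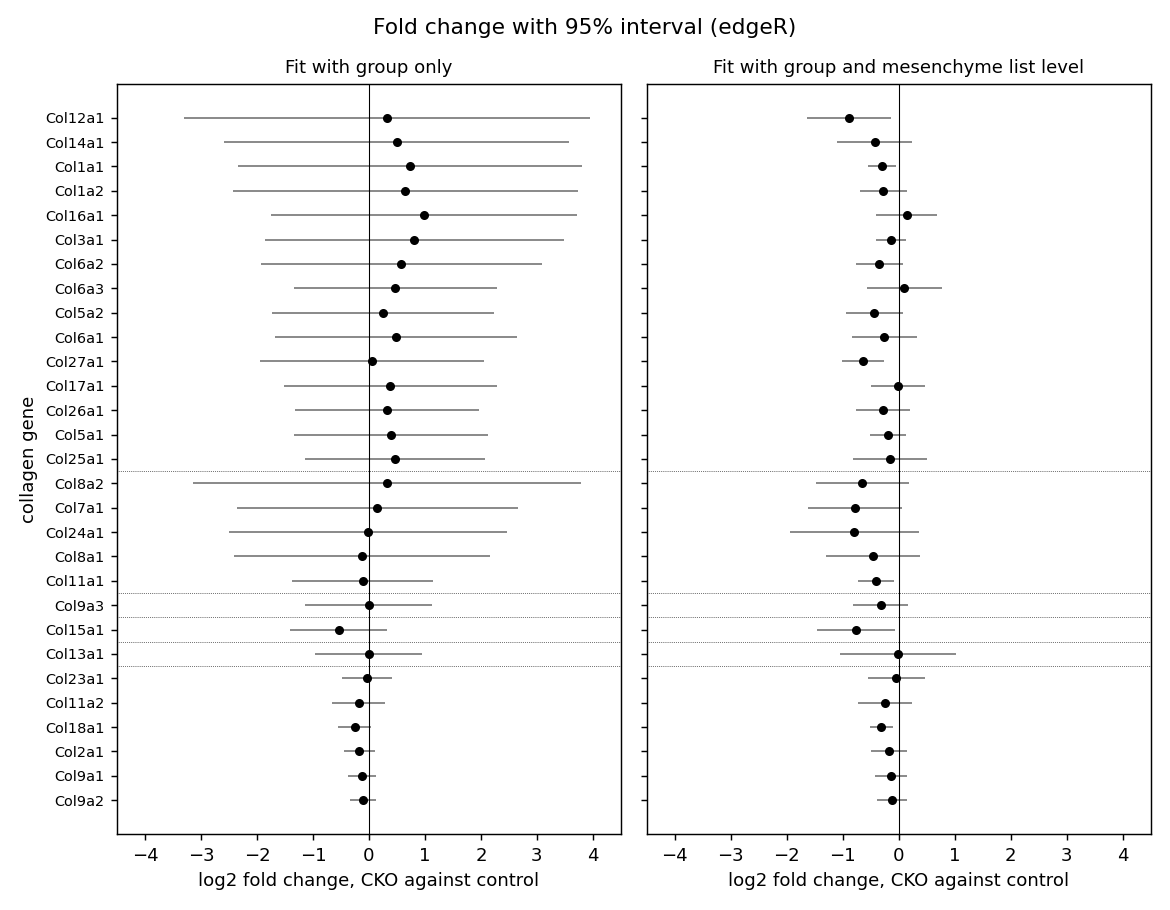
The log2 fold change of CKO against control (horizontal axis) is plotted for each collagen gene with its 95% interval from edgeR, on the left for the fit with group only and on the right for the fit with the mesenchyme list level as a covariate, with dotted lines between the closest-profile classes. On the left the upper genes have intervals several log2 units wide and the lowest 6 are narrow, with all values between -0.54 and 0.98, and on the right 27 of 29 values are below 0.

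With the mesenchyme list level of each library as a covariate, the standard errors of the members that followed it shrank and most values changed sign. Those members were picked for a steady ratio to the same list, so their smaller standard errors and p-values were in part built in. In this fit 27 of 29 members were below 0, with a median of -0.28 against -0.0015 over all genes tested. Unadjusted p was under 0.05 in 6 of 29 members, all of them lower in CKO, against 3.99% of all genes, and 0 members passed at an adjusted p under 0.05. These 6 were Col1a1 (-0.30 ± 0.10), Col11a1 (-0.41 ± 0.13), Col12a1 (-0.89 ± 0.31), Col15a1 (-0.76 ± 0.28), Col18a1 (-0.31 ± 0.09) and Col27a1 (-0.63 ± 0.15). The lowest of their edgeR adjusted p-values was 0.90, for Col27a1. Col16a1 (0.14 ± 0.22) and Col6a3 (0.11 ± 0.27) were the members above 0. The fit has few pools for an added term, and the list level is set apart mainly by control replicate 1 and CKO replicate 2.

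The direction of the members closest to mesenchyme rested on single libraries. Without CKO replicate 2 the log2 fold change was below 0 in 28 of 29 members (median -0.80), and without control replicate 1 it was above 0 in 22 of 29 (median 1.06). Col1a1 was -1.59 without CKO replicate 2 and 2.29 without control replicate 1, and Col12a1 was -2.57 and 2.71. With both libraries left out, an alternative added after seeing the data, the value was below 0 in 21 of 29 members, with a median of -0.18. Col1a1 then had -0.06 ± 0.51, Col3a1 0.07 ± 0.45, Col12a1 -0.21 ± 0.51 and Col18a1 -0.30 ± 0.15. Unadjusted p was then under 0.05 for Col15a1 (-1.06 ± 0.32) and Col7a1 (-0.78 ± 0.31), 2 of 29 members against 1.35% of all genes, and for 0 members after adjustment in edgeR. In the same 4 libraries both CKO values lay below both control values in 8 members (Col7a1, Col9a3, Col11a1, Col11a2, Col15a1, Col18a1, Col24a1 and Col25a1), against 21.4% of all genes in either direction.

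The most abundant genes that process collagen varied less between libraries than the collagens of the mesenchyme class. Of 34 listed genes for chain modification, folding, secretion, trimming and crosslinking, 26 were tested, and 0 had an unadjusted p under 0.05 in either direction. Their log2 fold change was above 0 in 18 and below 0 in 8, with a median of 0.05, and their summed CPM, in which Serpinh1, P4hb and P4ha1 were the highest genes, spanned 1.46-fold over the libraries. Serpinh1, the collagen chaperone of the endoplasmic reticulum, had 546, 522 and 403 CPM in the control and 422, 619 and 485 CPM in the CKO replicates. P4hb and P4ha1, the subunits of prolyl 4-hydroxylase, spanned 1.24-fold and 1.99-fold. Ppib, Colgalt1 and Mia3, which act in chain folding, glycosylation and export, spanned 1.24-fold, 1.18-fold and 1.22-fold. Lox, which crosslinks fibrils and was named after its values were seen, had 57.1, 14.4 and 7.04 CPM in the control and 10.8, 125 and 24.0 CPM in the CKO replicates, with the same highest libraries as type I collagen.

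Of 19 listed receptors and degrading enzymes, 15 were tested, and 0 had an unadjusted p under 0.05, with 10 above 0, 5 below 0 and a median log2 fold change of 0.12. Itgb1, the common beta chain of collagen-binding integrins, and Ddr1, a collagen receptor kinase of epithelia, spanned 1.44-fold and 1.19-fold. Mmp14, a membrane collagenase, and Timp2, an inhibitor of such proteases, spanned 1.85-fold and 2.32-fold. Ddr2, the receptor kinase of mesenchyme, Mmp2, a gelatinase, and Fap, a fibroblast protease, spanned 8.86-fold, 6.05-fold and 31.2-fold with control replicate 1 and CKO replicate 2 highest (these 3 were named after their values were seen). The span of Fap rests on a low level, with a mean of 3.84 CPM and 0.39 CPM in control replicate 3, its lowest library.

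Of the type IV chains, 4 were tested as genes of the lens capsule, and none was highest in control replicate 1 or CKO replicate 2. Col4a1 had 1163, 2311 and 989 CPM in the control and 1026, 1001 and 789 CPM in the CKO replicates, highest in control replicate 2. Its log2 fold change was -0.66 ± 0.33 and that of Col4a2 -0.70 ± 0.31, both with an adjusted p of 0.9998 by edgeR. Col4a5 and Col4a6, added after their values were seen, had log2 fold changes of 0.15 ± 0.29 and 0.23 ± 0.31. In control replicate 1 and CKO replicate 2, Col4a1 thus lay within the range of the other pools, as did Col9a1, Col9a2 and Col2a1.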

How the data were processed

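The authors trimmed paired-end reads of polyA-selected, strand-specific libraries, aligned them to mm10 with TopHat2 (2.0.13 in the submitters' processing notes) and counted fragments per gene with HTSeq (0.6.1). They deposited these raw counts per gene, without normalization. The strand and overlap options of the counting are not given in the sources used here, so overlapping genes are uncertain.

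Counts were scaled by TMM and tested over the whole table in edgeR 4.0.16 (R 4.3.3; robust quasi-likelihood fit, Benjamini-Hochberg adjustment), after a test on simulated data. The study used DESeq2, run here (1.42.0) as an alternative. The other alternatives were limma voom (3.58.1), other scaling factors, other filters, the replicate number as a block, the mesenchyme list level as a covariate and each library left out. Leaving out control replicate 1 and CKO replicate 2 together was added after seeing the data. Log2 CPM of lists used a prior count of 1. Symbols and lengths came from GENCODE M21 for GRCm38 (12787 genes matched by symbol, 175 by synonym, 62 unmatched), and promoters from RefSeq. Tables were joined in Python 3.11.15 (pandas 2.3.3) and drawn with matplotlib 3.10.9.

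Every member could be named, with values in each library at a mean of at least 10 CPM. Pathway genes were named past an unadjusted p of 0.05 or over a mean of 100 CPM, and of each marker list the 3 highest genes. The members and lists were chosen with earlier results of these data known. Sources name pools of different embryos, so p-values measure the spread between 3 pools in each group. Libraries held 15157230 or more counts, but members named with values had as few as 46 counts in a library (Col8a2), and counting error was not set against the spread between pools.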

Additional observations from a re-analysis of the deposited data

How the results depend on the processing

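The count of members at an adjusted p under 0.05 was 0 under every alternative run. The count at an unadjusted p under 0.05 was 0 of 29, became 1 with the replicate block (4.01% of all genes) and 6 with the mesenchyme list level as a covariate (3.99%), and was 2 without control replicate 1 and CKO replicate 2 together (1.35%). It ranged from 0 to 2 with each library left out, against 2.11% to 9.59% of all genes (Col15a1 and Col18a1 against 3% without CKO replicate 2, and Col18a1 against 9.59% without control replicate 3). Members whose groups did not overlap were 0 to 8 with each library left out, against 13.5% to 27.7% of all genes, with 8 of 29 without CKO replicate 2 (15.5% of all genes) and 8 of 29 without both libraries (21.4%). The number closest to the mesenchyme list was 15, and 7 to 17 with each library left out (7 without CKO replicate 2). It was 11 with the median of each list (9 closest to pigment). With a filter of at least 50 counts in 3 libraries it was 12 (8 closest to pigment).

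The members' median log2 fold change stayed between 0.11 and 0.26 under other tests, scalings and filters and with the replicate block. Of 26 members followed singly, 20 changed sign under at least 1 alternative. Signs changed with the mesenchyme covariate for Col12a1 (-0.89), Col14a1 (-0.43), Col17a1 (-0.0087), Col1a1 (-0.30), Col1a2 (-0.27), Col26a1 (-0.28), Col27a1 (-0.63), Col3a1 (-0.13), Col5a1 (-0.19), Col5a2 (-0.43), Col6a1 (-0.25), Col6a2 (-0.34), Col7a1 (-0.77) and Col8a2 (-0.65). They changed under limma voom for Col13a1 (0.22), Col27a1 (-0.16), Col5a2 (-0.042), Col7a1 (-0.28) and Col8a1 (0.16), and for Col13a1 also under RLE (0.00026) and upper-quartile (0.0070) factors. Without control replicate 1 and CKO replicate 2 together the changed values were Col12a1 (-0.21), Col1a1 (-0.061), Col26a1 (-0.40), Col27a1 (-0.56), Col5a1 (-0.19), Col5a2 (-0.24), Col6a1 (-0.065), Col6a2 (-0.22), Col7a1 (-0.78) and Col8a1 (0.32). With each library left out, values ran for Col11a1 from -0.79 to 0.43, Col12a1 from -2.57 to 2.71, Col13a1 from -0.33 to 0.54, Col14a1 from -1.60 to 2.31, Col16a1 from -0.80 to 2.37, Col17a1 from -0.57 to 1.30, Col1a1 from -1.59 to 2.29, Col1a2 from -1.56 to 2.39, Col23a1 from -0.20 to 0.15, Col26a1 from -0.76 to 0.73, Col27a1 from -1.33 to 0.83, Col3a1 from -1.12 to 2.02, Col5a1 from -0.79 to 0.999, Col5a2 from -1.04 to 1.06, Col6a1 from -1.01 to 1.44, Col6a2 from -1.32 to 1.69, Col6a3 from -0.54 to 1.12, Col7a1 from -1.85 to 1.22, Col8a1 from -1.20 to 1.41 and Col8a2 from -2.31 to 2.77. The cause was not tested.

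The replicate numbers were also fitted as a block. Deviations from the group means correlated across genes at -0.49, 0.09 and 0.44 for numbers 1, 2 and 3, and control replicate 1 correlated best with CKO replicate 2 (0.56). With 3 pools in each group, these correlations cannot show or exclude a batch shared by the pools of a number. The replicate block gave 1 member at an unadjusted p under 0.05 (Col15a1, -0.60), a median of 0.11 and changed signs for Col13a1 (0.14), Col27a1 (-0.20), Col7a1 (-0.40) and Col8a1 (0.20).

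Tissue dissected with the lens was not measured apart from the lens, the classes rest on 6 libraries, and a steady level does not show in which cells a gene was expressed. Without control replicate 1 and CKO replicate 2 together, 10 members were closest to mesenchyme, 1 (Col9a1) to pigment and 10 to the flat profile, which Col6a1, Col9a3, Col11a1, Col24a1 and Col25a1 had joined. The rest were closest to the surface ectoderm list (Col5a1, Col6a2, Col6a3 and Col13a1), the macrophage list (Col26a1 and Col27a1) or the vessel list (Col7a1 and Col15a1). Col11a2 and Col18a1 left the flat class without control replicate 2 or without control replicate 3, and Col23a1 without CKO replicate 3.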
